A study of Mus musculus with 8 samples.

Results

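A set of 10 enzymes of antioxidant defence was described in mouse heart after myocardial infarction. They were chosen by name for what they do, with earlier results of these data known. They are Sod2, Sod3, Cat, Gpx3, Hmox1, Nqo1, Gclc, Gclm, Txnrd1 and Srxn1, and they stand for 10 of the 35299 loci in the deposited table. Each of the 10 had a locus of its own, and all 10 passed the filter on low values, a mean of at least 10 normalised reads over the 8 libraries. The MI group holds 4 C57BL/6J mice that had an infarct. The Sham group holds 4 C57BL/6J mice that had a sham operation. All were 12 weeks old, and tissue of the heart's border zone was taken 2 weeks after surgery. Poly(A) RNA was sequenced in paired reads of 100 bases. As background, C57BL/6J is a strain known for a deletion in Nnt, the mitochondrial transhydrogenase that makes NADPH. It would be common to MI and Sham hearts and was not checked here.

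Heart muscle makes reactive oxygen species in its mitochondria, in peroxisomes and through NADPH oxidases. Superoxide dismutases turn superoxide into hydrogen peroxide, which catalase and the glutathione and thioredoxin peroxidases then remove. The last of these systems draw on glutathione, on thioredoxin reductase and on NADPH. The transcription factor NRF2, encoded by Nfe2l2, is held down by KEAP1 and drives many of the genes through the antioxidant response element, a short DNA motif that BACH1 can also occupy.

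Reads counted in the loci of the deposited table came to 165 to 190.2 M per library in MI hearts and 108 to 161 M in Sham hearts. Loci of the mitochondrial chromosome took 23.8% to 26.1% of these reads in MI hearts and 29.2% to 32.3% in Sham hearts. Groups follow the sample titles and the treatment field. Other fields disagree: MI samples carry Sham as their source, some descriptions go against the titles, and the Sham titles alone carry a remark on reanalysis, so whether that step bears on a difference cannot be told apart from the operation. On the first principal component, with 61.9% of the variance, MI replicate 2 sat at -34.8, apart from the other MI libraries at -63.2 to -62.4, while Sham libraries lay between 42.6 and 65.2. Cardiomyocyte markers were present in every library. Of their 6 tested genes 5 fell and none rose, and their summed level was 3005283 to 4120048 normalised reads in MI hearts and 5450699 to 6042687 in Sham hearts. All 7 fibroblast markers rose, with sums of 475803 to 720403 in MI hearts and 92740 to 136826 in Sham hearts. Of 7 macrophage and monocyte markers 5 rose and none fell (27905 to 36108 in MI hearts, 18770.4 to 24653 in Sham hearts), and of 6 endothelial markers none passed the test (174248 to 197506 in MI hearts, 162336 to 212814 in Sham hearts). The 3 tested neutrophil markers rose (sums of all 8 listed genes 438 to 1869 in MI hearts and 105 to 222 in Sham hearts), while Mpo, Elane, Ngp, Camp and Ltf stayed under the filter, with Elane at 0 in 2 of the MI and 4 of the Sham libraries. All 7 lymphocyte markers rose (259 to 656 in MI hearts, 147 to 309 in Sham hearts), with 3 called without MI replicate 1 and 4 without MI replicate 3, MI replicate 4, Sham replicate 2 or Sham replicate 3. Of the other lists, 3 of 6 smooth muscle and pericyte markers rose (117968 to 139686 in MI hearts, 120472 to 135621 in Sham hearts), and 1 of 4 red cell markers fell (18340.4 to 46507 in MI hearts, 27837 to 89261 in Sham hearts). No red cell marker was called without MI replicate 1, 2 or 4 or Sham replicate 2 or 3, while 2 were lower without MI replicate 3 and 3 without Sham replicate 1. Of the endothelial markers 1 was called higher with TMM or upper-quartile scaling and 2 without Sham replicate 1. Among macrophage and monocyte markers the lowest log2 difference was -0.51, and 1 marker was called lower with upper-quartile scaling. That was also so without MI replicate 2 and without MI replicate 3. Scaled to the library total, 1 cardiomyocyte marker was called higher and 3 lower, 3 endothelial markers were called higher, and no red cell marker was called.

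Among the 10 enzymes 3 rose in MI hearts, 3 fell and 4 did not pass the test. Gpx3, Sod3 and Hmox1 were higher in MI hearts, and Sod2, Cat and Nqo1 lower. The test was limma with an intensity trend on log2(value + 1), fitted over 19186 loci and adjusted by Benjamini-Hochberg with a threshold of 0.05; it called 40.9% of all tested loci, 20.8% higher and 20.1% lower in MI hearts. The 4 MI values lay wholly outside the 4 Sham values for 5 of the 10, against 39.6% of all tested loci. Of these, 3 lay above and 2 below, against 19.7% and 20% of all tested loci. The median log2 difference was 0.04 over the enzymes and -0.02 over all tested loci. Scaling to the library total in place of the deposited size factors moved the median of all loci by 0.30 on the log2 scale, and the enzymes then split into 7 higher and 1 lower, with 8525 loci higher and 1498 lower overall. With that scaling without the mitochondrial chromosome the split was 6 higher and 1 lower. Without MI replicate 2 the log2 differences were 1.33 for Gpx3, 1.01 for Sod3, 0.88 for Hmox1, -0.74 for Sod2, -0.31 for Cat and -0.24 for Nqo1, and of these that of Nqo1 alone no longer passed (limma adjusted p 0.0849).

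**Figure D1:**
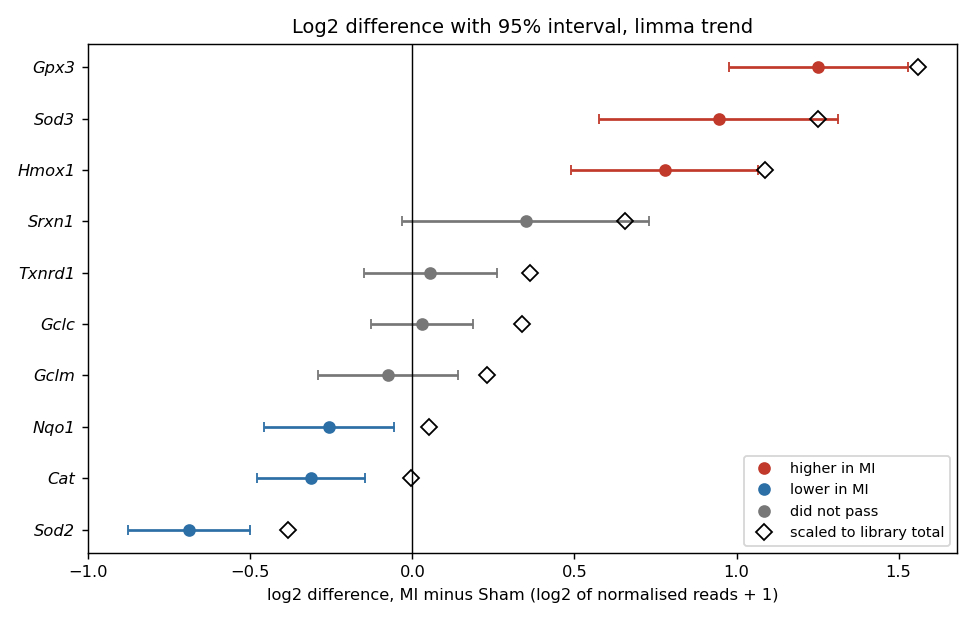
Log2 difference, MI minus Sham, of each enzyme gene from the limma fit (points) with its 95% interval (bars); open diamonds give the value scaled to the library total. Gpx3, Sod3 and Hmox1 lie at 1.25, 0.94 and 0.78, Sod2, Cat and Nqo1 at -0.69, -0.31 and -0.26, and the intervals of the other 4 genes include 0.

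Promoter sequence of the enzyme genes is shown to set their regulatory letters beside the values that follow. RefSeq windows of the assembly GRCm38.p6, from 250 bases before to 50 bases after a transcript start, matched 7 of the 10 genes in 9 windows. Both strands were searched for the antioxidant response element core TGACNNNGC, the AP-1 site TGANTCA and the GC box GGGCGG, and no match overlapped one of another motif. The antioxidant response element core was found in 3 of the 9 windows, those of Srxn1, Gclm and Txnrd1, and in 12.4% of all 32851 windows of this length. The AP-1 site was in 1 of the 9, that of Srxn1, and in 7.81% of all windows. The windows of these 3 genes read as follows, on the plus strand and 5′ to 3′, with matches of the antioxidant response element core and the AP-1 site in capitals.
Srxn1, chr2:152105274-152105573: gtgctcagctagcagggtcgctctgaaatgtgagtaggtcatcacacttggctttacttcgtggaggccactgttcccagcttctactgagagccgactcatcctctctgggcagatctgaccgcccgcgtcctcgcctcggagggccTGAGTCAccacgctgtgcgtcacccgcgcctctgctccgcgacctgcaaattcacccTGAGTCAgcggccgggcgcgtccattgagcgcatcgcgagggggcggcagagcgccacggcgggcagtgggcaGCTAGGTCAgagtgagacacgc
Gclm, chr3:122245307-122245606: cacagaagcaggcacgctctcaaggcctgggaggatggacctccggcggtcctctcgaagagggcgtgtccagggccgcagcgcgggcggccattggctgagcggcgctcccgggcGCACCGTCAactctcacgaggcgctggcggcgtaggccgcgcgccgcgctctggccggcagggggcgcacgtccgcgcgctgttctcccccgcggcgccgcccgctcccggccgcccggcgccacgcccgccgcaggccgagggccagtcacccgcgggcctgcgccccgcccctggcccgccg
Txnrd1, second of 3 starts, chr10:82858956-82859255: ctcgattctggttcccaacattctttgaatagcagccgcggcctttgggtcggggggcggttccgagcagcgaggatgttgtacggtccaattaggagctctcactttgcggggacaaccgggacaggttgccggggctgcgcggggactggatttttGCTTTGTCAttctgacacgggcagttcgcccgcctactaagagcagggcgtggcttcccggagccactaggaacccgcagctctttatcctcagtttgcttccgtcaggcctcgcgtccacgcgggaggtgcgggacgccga
In Gclm the core lay 134 to 126 bases before the start and in Txnrd1 92 to 84 bases before it, on the minus strand in both. Srxn1 held the core 29 to 37 bases after the start on the minus strand, and AP-1 sites 102 to 96 and 45 to 39 bases before it. The AP-1 motif TGANTCA reads the same on both strands, so these sites have no strand of their own. None of these 3 genes passed the test between MI and Sham hearts. Hmox1 and Sod3, which rose, and Gclc had no window and were not searched. The window of Nqo1 held neither the core nor the AP-1 site. Sequence outside the windows was not searched, so no link between the core and the test's outcome can be read from these matches. A match is a description of letters and not a site shown to be bound.

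For contrast, the windows of Gpx3 and Sod2, which moved in opposite directions, held neither the antioxidant response element core nor the AP-1 site. GC boxes, which were in 7 of the 9 windows and in 35.7% of all windows, are in capitals here.
Gpx3, chr11:54902604-54902903: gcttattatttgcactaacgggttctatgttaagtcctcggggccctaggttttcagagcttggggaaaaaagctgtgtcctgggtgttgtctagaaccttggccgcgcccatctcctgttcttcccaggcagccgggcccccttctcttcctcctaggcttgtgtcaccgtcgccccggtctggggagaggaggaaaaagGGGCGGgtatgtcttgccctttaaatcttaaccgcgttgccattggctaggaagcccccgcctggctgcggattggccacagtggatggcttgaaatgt
Sod2, chr17:13007589-13007888: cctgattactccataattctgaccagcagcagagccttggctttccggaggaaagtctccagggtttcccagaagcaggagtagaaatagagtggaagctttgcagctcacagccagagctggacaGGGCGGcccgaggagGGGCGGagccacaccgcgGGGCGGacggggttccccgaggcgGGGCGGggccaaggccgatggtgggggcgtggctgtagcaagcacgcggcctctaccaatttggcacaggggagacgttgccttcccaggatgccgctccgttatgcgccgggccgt
Sod2 carried 4 GC boxes, all before the start, and Gpx3 carried 1, from 49 to 44 bases before it. Cat, which fell like Sod2, carried 1 as well, and Gclm, which did not pass the test, carried as many as Sod2. No link between GC boxes and direction was tested.

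The superoxide dismutases moved in opposite directions. Sod2, the manganese enzyme of the mitochondrial matrix, fell in MI hearts, while Sod3, the secreted enzyme bound to the extracellular matrix, rose. Sod2 (mm9, chr17:13197138-13523760, plus strand) had 49334, 59908, 49730.1 and 55308 normalised reads in MI hearts, against 83744, 80876, 93719 and 86653 in Sham hearts. Every MI heart lay below every Sham heart. The means were 53570 ± 5029 in MI hearts and 86248 ± 5511 in Sham hearts (SD, n = 4 each), which put MI at 0.621 times Sham. The log2 difference was -0.69 ± 0.09 (SE, limma adjusted p 0.000158), with a 95% interval of 0.544 to 0.707 as a fold. For each enzyme the ratio is that of the means, while the interval beside it is that of the log2 difference. The Sod2 locus as assembled by the authors holds 12 introns, of which 7 match the annotated gene, and it reaches well past that gene, and how its reads divide among the exons was not tested. In bulk tissue fewer cells of a type and less RNA per cell cannot be told apart. The cardiomyocyte marker sum, at 0.612 times the Sham level, moved in the same direction as Sod2, and its part in the result was not tested. Single markers differed here too. Actn2 was at 0.906 times the Sham mean and did not pass the test (limma adjusted p 0.265), Ryr2 was at 0.630 and Atp2a2 at 0.518.

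Sod3 (chr5:52755043-52762972, plus strand) had 9959, 9203, 9982 and 13431 normalised reads in MI hearts, against 7039, 4373, 6358 and 4576 in Sham hearts. MI replicate 4 was the highest of its group, and the groups did not overlap. MI hearts averaged 10644 ± 1893 and Sham hearts 5587 ± 1317 (SD, n = 4 each), a ratio of 1.91 (1.49 to 2.48) and a log2 difference of 0.94 ± 0.17 (limma adjusted p 0.00127). The fibroblast marker sum was 5.28 times the Sham level in MI hearts, and single markers differed widely. Col1a1 was at 9.20 times the Sham mean, Dcn at 1.55 and Pdgfra at 1.41. The macrophage marker sum was at 1.46 times, and the part of either sum in the rise of Sod3 was not tested. Among the 10 enzymes Sod3 had the highest coefficient of variation in Sham hearts, 23.6%, and in MI hearts it was 17.8%.

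The hydrogen peroxide enzymes also moved both ways. Gpx3, the secreted selenium-dependent glutathione peroxidase of plasma, had the largest rise of the 10, and Cat, the catalase of peroxisomes, fell modestly. Gpx3 (chr11:54715885-54723889, plus strand) had 42326, 36377, 48337 and 45889.9 normalised reads in MI hearts, against 19058, 15353, 22194 and 16347 in Sham hearts. The lowest MI heart was above the highest Sham heart. Averages were 43232 ± 5194 in MI hearts and 18238 ± 3067 in Sham hearts (SD, n = 4 each), 2.37 times as much (1.97 to 2.88), with a log2 difference of 1.25 ± 0.12 (limma adjusted p 4.32e-05). The locus shares 100 exon bases, 5.02% of its exon length, with Tnip1 on the opposite strand, and whether the libraries keep strand is not given in the sources used here. Tnip1 stood at 7467 normalised reads in MI hearts and 5564 in Sham hearts.

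Cat (chr2:103294160-103325277, minus strand) had 24779, 27448, 28611 and 29884 normalised reads in MI hearts, against 33998, 32135, 35429 and 35779.6 in Sham hearts. All MI hearts were below all Sham hearts, with MI replicate 4 the nearest to them. The means were 27680.2 ± 2175 in MI hearts and 34335 ± 1657 in Sham hearts (SD, n = 4 each), 0.806 times as much (0.717 to 0.903), with a log2 difference of -0.31 ± 0.08 (limma adjusted p 0.00721). Scaled to the library total the difference was -0.005 (adjusted p 0.939), and to the total without the mitochondrial chromosome -0.12 (adjusted p 0.0783), so the call rests on the scaling. Relative to the median of all loci under total scaling Cat was at -0.29.

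**Figure D2:**
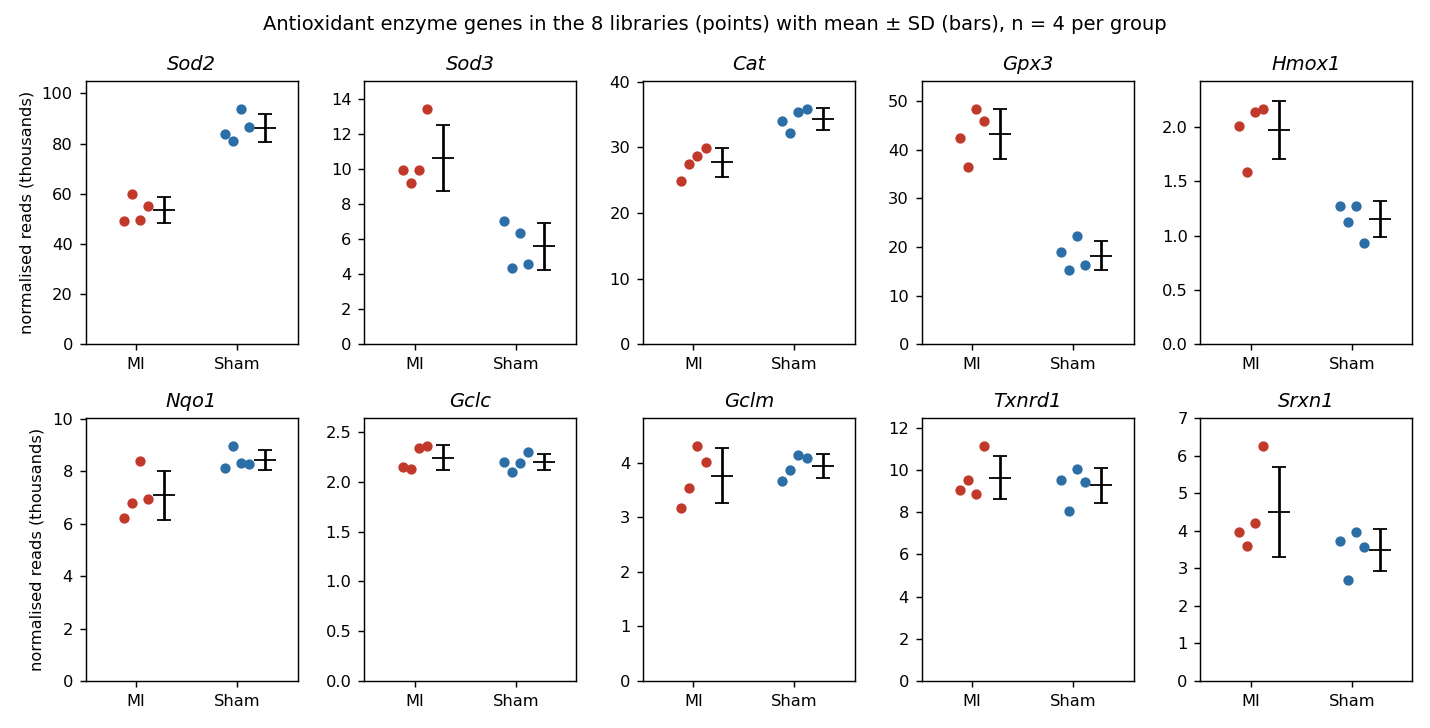
Normalised reads of the 10 enzyme genes in each library (points) with mean and SD (bars), MI hearts on the left of each panel and Sham hearts on the right, 4 per group, with the vertical axis from 0. The groups do not overlap for Sod2, Sod3, Cat, Gpx3 and Hmox1, and they overlap for the other 5 genes.

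Gpx3 and Txnrd1 are both selenoproteins, whose active-site selenocysteine is written in the mRNA as a TGA that elsewhere ends translation. The codon and its surroundings are printed because both members depend on the same recoding. They come from GENCODE M21 on GRCm38, plus strand, with the selenocysteine codon in capitals.
Gpx3, codon at chr11:54907256-54907258: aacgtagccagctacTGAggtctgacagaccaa
Txnrd1, codon at chr10:82896037-82896039: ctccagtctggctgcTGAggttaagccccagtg
In Txnrd1 the codon is the last but one of the protein, and the sequence shows a second stop, taa, just after the glycine codon ggt. In Gpx3 it lies inside the protein. The 2 genes differed in outcome, since Gpx3 rose and Txnrd1 did not pass the test.

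Hmox1, the inducible haem oxygenase that breaks haem into biliverdin, iron and carbon monoxide, rose in MI hearts. Hmox1 (chr8:77617521-77624484, plus strand) had 2010.3, 1591, 2138 and 2166 normalised reads in MI hearts, against 1275, 1126, 1277 and 930.2 in Sham hearts. MI replicate 2 was the lowest MI heart and still above all 4 Sham hearts. Means were 1976 ± 266 in MI hearts and 1152 ± 164 in Sham hearts (SD, n = 4 each), a ratio of 1.72 (1.41 to 2.10), and the log2 difference was 0.78 ± 0.13 (limma adjusted p 0.000935). Without MI replicate 2 it was 0.88. Macrophages are known to express Hmox1, and the part of their marker rise, given above, in this difference was not tested.

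Nqo1, a quinone reductase that uses NADH or NADPH and is a classic NRF2 target, was slightly lower in MI hearts. Nqo1 (chr8:109892112-109927457, minus strand) had 6215, 6787, 8394 and 6954 normalised reads in MI hearts, against 8131, 8973, 8318 and 8281 in Sham hearts. MI replicate 3 lay within the Sham range and the other 3 MI hearts below it. The means were 7088 ± 927 in MI hearts and 8426 ± 373 in Sham hearts (SD, n = 4 each), 0.841 times as much (0.728 to 0.961), with a log2 difference of -0.26 ± 0.09 (limma adjusted p 0.0423). This call was the least stable of the 6: it held in 9 of 21 alternatives. It was lost with edgeR (adjusted p 0.0569) and in 7 of 8 fits that leave out 1 library, all but the one without MI replicate 3 (-0.34), and with total scaling the sign also turned, to 0.05. The locus shares 127 exon bases, 1.18% of its exon length, with Nfat5 on the opposite strand.

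The rate-limiting enzyme of glutathione synthesis has a catalytic subunit, encoded by Gclc, and a modifier subunit, encoded by Gclm. Neither passed the test. Gclc (chr9:77602347-77642304, plus strand) had 2146, 2126, 2339.7 and 2361 normalised reads in MI hearts, against 2201, 2095, 2194 and 2296 in Sham hearts. The ranges overlapped over most of their length. The means of Gclc were 2243 ± 124 in MI hearts and 2197 ± 81.8 in Sham hearts (SD, n = 4 each), with a log2 difference of 0.03 ± 0.07 (limma adjusted p 0.774) and a fold interval of 0.915 to 1.14. With total scaling it was called higher, at 0.34.

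Gclm (chr3:121948510-121973861, plus strand) had 3173, 3540.3, 4305 and 4018 normalised reads in MI hearts, against 3669, 3864, 4140.4 and 4084 in Sham hearts. MI hearts spanned the whole Sham range, with replicates 1 and 2 below it and replicate 3 above it. The means of Gclm were 3759 ± 502 in MI hearts and 3939 ± 216 in Sham hearts (SD, n = 4 each), with a log2 difference of -0.08 ± 0.10 (limma adjusted p 0.570) and a fold interval of 0.817 to 1.10. The sign turned with total scaling, where Gclm was called higher at 0.23 (limma adjusted p 0.0411), and the difference came to 0.12 with that scaling without the mitochondrial chromosome and to 0.002 without MI replicate 1.

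Txnrd1 encodes the cytosolic thioredoxin reductase that passes electrons of NADPH to thioredoxin. Txnrd1 (chr10:82296696-82360469, plus strand) had 9055, 9516, 8859.8 and 11142 normalised reads in MI hearts, against 9523, 8079, 10070.2 and 9418 in Sham hearts. MI replicate 4 was the highest of all 8 and Sham replicate 2 the lowest, and the rest were mixed. The means were 9643 ± 1036 in MI hearts and 9272 ± 846 in Sham hearts (SD, n = 4 each), with a log2 difference of 0.06 ± 0.09 (limma adjusted p 0.670) and a fold interval of 0.901 to 1.20. Without MI replicate 4 the difference was -0.02 and without Sham replicate 2 it was -0.01, while with total scaling Txnrd1 was called higher at 0.36.

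Srxn1 encodes sulfiredoxin, which repairs over-oxidised peroxiredoxins. Srxn1 (chr2:151931289-151941916, plus strand) had 3971, 3583, 4212 and 6264 normalised reads in MI hearts, against 3733, 2689, 3981 and 3566 in Sham hearts. MI replicate 4 stood well above the others, MI replicate 3 lay just above the Sham range, and MI replicates 1 and 2 lay within it. The means of Srxn1 were 4508 ± 1199 in MI hearts and 3492 ± 562 in Sham hearts (SD, n = 4 each), a ratio of 1.29 with a fold interval of 0.978 to 1.66, and a log2 difference of 0.35 ± 0.17 (limma adjusted p 0.130). The difference was 0.18 without MI replicate 4 and 0.23 without Sham replicate 2. Srxn1 was called higher with total scaling at 0.66, and at 0.54 with that scaling without the mitochondrial chromosome, and it varied most of the 10 enzymes in MI hearts, with a coefficient of variation of 26.6%.

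Levels can be set side by side only per length, here as normalised reads per kilobase of the exons of each locus. In MI hearts Gpx3 was the most abundant at 21692 ± 2606, ahead of Cat at 11443 ± 899 and Sod2 at 4881 ± 458 (SD, n = 4 each). Sod3 at 2635 and Txnrd1 at 2395 had overlapping ranges, Hmox1 followed at 1264, and Nqo1 at 660.0, Gclc at 654, Gclm at 652 and Srxn1 at 594 overlapped their neighbours. In Sham hearts the order began with Cat at 14194 ± 685, and Gpx3 at 9151 ± 1539 overlapped Sod2 at 7859 ± 502 (SD, n = 4 each). Txnrd1 at 2303 and Sod3 at 1383 came next, then Nqo1 at 785, Hmox1 at 737, Gclm at 683 and Gclc at 640.4, each overlapping the next, and Srxn1 was last at 460.3. Cat led Gpx3 in Sham hearts and Gpx3 led Cat in MI hearts, with no overlap of the 4 libraries in either group on this length. Divided by the longest transcript in place of all exons, Gpx3 and Cat overlapped in Sham hearts and not in MI hearts, and Gpx3 was at 28386 in MI hearts and 11975 in Sham hearts and Sod2 at 7185 in MI hearts and 11568 in Sham hearts.

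**Figure D3:**
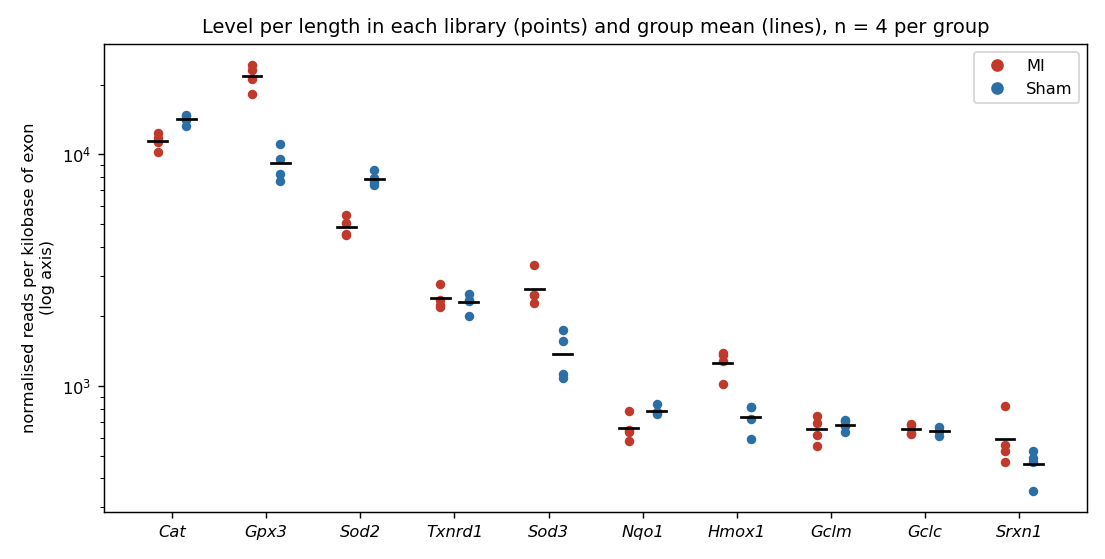
Mean normalised reads per kilobase of exon (log axis) of the 10 enzyme genes, with the 4 libraries of each group as points, MI hearts left of Sham hearts. Gpx3 and Cat exchange first place between the groups, and Nqo1, Gclc, Gclm and Srxn1 lie together between 594 and 660.0 in MI hearts.

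Other genes of these pathways were read from lists by role, 138 genes in all, with 124 of them tested; for 126 a single locus held that gene and no other. The lists, like the enzymes, were chosen with earlier results of these data known. The counts of each list stand beside 20.8% of all 19186 tested loci called higher and 20.1% called lower. With total scaling 8525 of all tested loci were higher and 1498 lower. Among the regulators of NRF2 and the genes of haem and iron handling 3 rose, 5 fell and 5 did not pass the test out of 13 (median -0.06). Nfe2l2 averaged 12232 ± 2360 normalised reads in MI hearts and 12809 ± 3119 in Sham hearts (SD, n = 4 each; limma adjusted p 0.827). Keap1 fell by 0.27 on the log2 scale (limma adjusted p 0.0158), and its sign turned to 0.04 with total scaling. Bach1 fell by 0.50 (limma adjusted p 0.0123), and this call too was lost with total scaling. Slc40a1, the iron exporter ferroportin, fell by 0.84 ± 0.11, and Maff and Mafk, small MAF partners of NRF2, rose by 0.88 ± 0.29 and 0.56 ± 0.17. Leaving out 1 library ended the call of Maff in 5 of 8 fits and that of Mafk in 5 of 8. No gene of the list was then higher without MI replicate 3, MI replicate 4, Sham replicate 1 or Sham replicate 4, and 1 was without Sham replicate 2. With total scaling the list had 7 higher and 2 lower. The ferritin chains parted, Fth1 at -0.52 and Ftl1 at 0.38, both past the test.

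In the list of glutathione synthesis, recycling and transfer 1 of 18 tested genes rose, 10 fell and 7 did not pass the test (median -0.38). The 1 that rose was Slc7a11, the cystine importer that feeds glutathione synthesis, with 208, 158, 74.1 and 139 normalised reads in MI hearts, against 4.77, 5.69, 3.41 and 6.31 in Sham hearts. The log2 difference was 4.52 ± 0.33 (limma adjusted p 8.40e-06), and the Sham values rest on 3 to 5 reads per library. Gstk1, a glutathione transferase of mitochondria and peroxisomes, fell by 1.29 ± 0.12, and Gsta3 fell by 1.17 ± 0.31. Gss, the second enzyme of glutathione synthesis, was at 0.01 and Gsr, glutathione reductase, at 0.08, neither past the test. With total scaling 5 genes of this list were higher and 6 lower.

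Among thioredoxin, peroxiredoxin, glutaredoxin and methionine sulfoxide reductase genes 2 of 21 rose, 12 fell and 7 did not pass the test (median -0.34). Msrb2, a methionine sulfoxide reductase of mitochondria, fell by 0.69 ± 0.10, Sesn1, a stress-induced sestrin, by 0.67 ± 0.17 and Prdx3, the peroxiredoxin of mitochondria, by 0.59 ± 0.08. Txn1 and Prdx1, cytosolic partners of Txnrd1 and Srxn1, were at 0.11 and -0.17 and did not pass the test. Of the genes that rose, Prdx4 and Sesn2, 1 was left without MI replicate 3, MI replicate 4, Sham replicate 2 or Sham replicate 4. With total scaling the list had 8 higher and 5 lower, and the call of Sesn1 was lost.

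The other superoxide dismutase and glutathione peroxidase genes had 2 of 7 higher and 1 lower (median 0.27). Gpx7 and Gpx8, peroxidases of the endoplasmic reticulum, rose by 1.02 ± 0.13 and 0.56 ± 0.11. Sod1, the cytosolic copper and zinc dismutase, fell by 0.50 ± 0.11 (limma adjusted p 0.0034). Gpx4, which reduces lipid peroxides, was at -0.28 (limma adjusted p 0.0566), past the threshold with upper-quartile scaling and without Sham replicate 2, and at 0.03 with total scaling. Gpx1 has no value here, since its locus in the authors' assembly also holds another gene.

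In the list named for NADPH supply 4 of 11 genes rose and 6 fell (median -0.28), and which of them make NADPH in these hearts was not tested. G6pdx, Pgd and Tkt, of the pentose phosphate pathway, rose by 0.48, 0.27 and 0.28, and Me2, a mitochondrial malic enzyme, by 0.19. Nadk2, Nnt and Idh2, all mitochondrial, fell by 0.98 ± 0.09, 0.74 ± 0.08 and 0.74 ± 0.09. The value of Nnt is that of the whole locus and says nothing on the strain's deletion. The 6 lower calls held without any 1 library, while the 4 higher ones came to 1 without MI replicate 1, 3 or 4 or Sham replicate 2 or 4, to 2 without Sham replicate 3 and to 3 without MI replicate 2 or Sham replicate 1. Total scaling gave 4 higher and 5 lower, with a median of 0.03.

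Enzymes that make oxidants moved the other way in number, with 9 of 15 higher and 2 lower (median 0.42). Nox4, an NADPH oxidase that releases hydrogen peroxide, averaged 2101 ± 685 normalised reads in MI hearts and 177 ± 25.9 in Sham hearts (SD, n = 4 each), a log2 difference of 3.50 ± 0.23. Ncf4 and Cybb, parts of the phagocyte oxidase, rose as well, Ncf4 to 432 ± 51.0 in MI hearts, against 154 ± 31.4 in Sham hearts, and Cybb by 1.19 ± 0.20 on the log2 scale. The macrophage marker rise given above moved with these 2 genes, and its part was not tested. Xdh, xanthine dehydrogenase, and Maob, a monoamine oxidase, fell by 0.71 and 0.88.

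Selenoproteins and the machinery that builds selenocysteine had 4 of 15 higher and 3 lower (median -0.04), against 20.8% and 20.1% of all tested loci. Dio2, the deiodinase that activates thyroid hormone, rose by 3.66 ± 0.20, and Selenom and Selenon by 0.59 ± 0.10 and 0.48 ± 0.11. Without Sham replicate 2 the list had 1 lower. With total scaling it had 8 higher and 0 lower, against 8525 and 1498 of all 19186 tested loci. The peroxisome genes, whose organelle holds catalase, had 0 of 24 higher and 19 lower (median -0.35). Pxmp2, a peroxisomal channel, fell by 1.03 ± 0.10, and Pex11a and Pex6, which act in peroxisome division and import, by 0.66 ± 0.10 and 0.64 ± 0.09. With total scaling 5 peroxisome genes were higher and 7 lower.

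**Figure D4:**
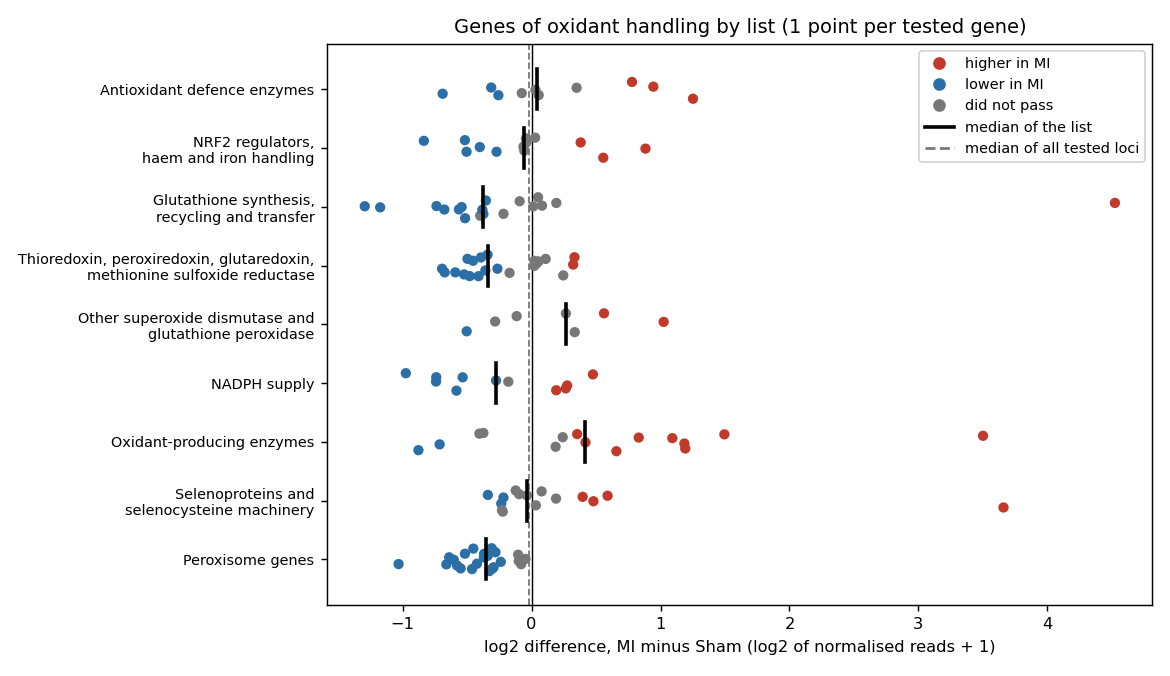
Log2 difference, MI minus Sham, of each tested gene (points) in the enzyme list and the 8 pathway lists, with the median of each list as a bar and that of all tested loci as a dashed line; colours mark the test's outcome. The medians of the peroxisome, glutathione and thioredoxin lists lie at -0.35, -0.38 and -0.34, that of the oxidant-producing list at 0.42, and that of all tested loci at -0.02.

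For each enzyme the gene with the most similar profile over the 8 libraries, by Pearson r of log2(value + 1), was looked up among the 170 other genes of the lists, as a description. Sod2 was most like Pxmp2 (r 0.996), Hmox1 like Gpx8 (0.990), Gpx3 like Ncf4 (0.986), Sod3 like Rac2 (0.985) and Cat like Pstk (0.978). Nqo1 was most like Abcd2 (0.945), Gclc like Msrb3 (0.918), Srxn1 like Pgd (0.887), Gclm like Lyve1 (0.884) and Txnrd1 like Msrb1 (0.783). The 8 points share the 2 groups and the same scaling, so a gene that moved between groups resembles others that did.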

How the data were processed

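The authors deposited 1 table of normalised read signal for 35299 loci in 8 poly(A) RNA-seq libraries and an annotation of each locus in mm9. Per the submitters' processing notes they used HTSeq 0.5.4p2, DESeq, Cufflinks 2.0.2 and TopHat2 2.0.5, with settings and roles not given in the sources used here. All values (100%) were whole multiples of a step per library within 1e-06, so the reads were recovered. Their number gives the depth over these loci and not the number of reads sequenced. Each read is worth 0.663 to 1.58 normalised reads, and a count of 0 allows up to 3 reads, or 1.99 to 4.73 normalised reads (counting error only). Positions in the deposited annotation (other columns) are as the authors gave them.

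Loci were named by intron lengths shared with GENCODE M21 on GRCm38, with offsets of at most 200000 bases to neighbours. Of 22383 loci with introns 20481 were named and 695 held several genes. No coordinate was carried between builds.

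The fit was limma 3.58.1 (R 4.3.3) on log2(value + 1) of loci with a mean of at least 10, 2-sided, with Benjamini-Hochberg adjustment over all 19186 tested loci; standard errors and 95% intervals are moderated. The series states biological replicates, and no libraries were duplicates (chi-square per degree of freedom at least 30.2 within groups). edgeR 4.0.16, DESeq2 1.42.0, voom, other scalings, pseudocounts and filters, a replicate block and leaving out each library were alternatives. On the recovered reads edgeR called 4288 loci higher and 3649 lower in MI hearts, and DESeq2 4331 higher and 4116 lower, against 3999 and 3855 with limma. The limma fit was checked on simulated data, in which far fewer loci changed than were called here. It recovered 36 of 100 changes of 1.5-fold and 61 of 100 of 2-fold. The changed loci were drawn at random from all tested loci, whatever their level, so these shares need not hold for the enzymes. A gene that did not pass may still have changed. For the enzymes that did not pass, the fold intervals stand beside their values. The members and lists were chosen with earlier results of these data known. Genes were named by rule: all 10 members, and in each pathway list the 3 called genes with the largest absolute log2 difference. In each marker list they were the first 3 tested genes in the order written, called or not. The most similar gene of each member was named too, and so were Nfe2l2, Keap1, Bach1, Sod1, Gpx1, Gpx4 and Nnt. Others named (Fth1, Ftl1, Prdx4, Sesn2, Txn1, Prdx1, Gss, Gsr, G6pdx, Pgd, Tkt, Me2, Xdh and Maob) were chosen after their values were seen.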

Additional observations from a re-analysis of the deposited data

Results flagged for a closer look

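Of 124 groups of 4 libraries checked over 62 named genes, 7 held a library whose gap to its nearest neighbour passed Dixon's 95% critical value, where chance gives about 1 in 20. None was an antioxidant enzyme of the 10. S100a8 and S100a9, neutrophil alarmins, were at 665 and 1091 normalised reads in MI replicate 2, against 150 to 206 and 240 to 286 in the other MI hearts. That library also stood apart on the first principal component. Nadk2 was at 6516 in MI replicate 2 (others 5418 to 5496) and Cdh5 at 43754 in MI replicate 4 (others 40532 to 40924). In Sham hearts Slc40a1 was at 3694 in replicate 4 (others 2987 to 3090), Pecam1 at 27875 in replicate 1 (others 22423 to 22705) and Myh11 at 6279 in replicate 3 (others 8689 to 8910).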

How the results depend on the processing

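Over 21 alternatives the calls of Sod2 (-0.74 to -0.38), Gpx3 (1.17 to 1.56), Sod3 (0.83 to 1.25) and Hmox1 (0.68 to 1.09) kept direction and threshold. Cat, Nqo1, Gclm, Gclc, Txnrd1 and Srxn1 changed with scaling to the library total, as given beside their values. Total scaling gave 7 enzymes higher and 1 lower and 8525 loci higher and 1498 lower, and without the mitochondrial chromosome 6 and 1, and 6368 and 2145. Beyond the pathway counts given in the text, total scaling gave 4 of the other dismutase and peroxidase genes higher and 1 oxidant-producing gene and 0 selenoprotein genes lower, and upper-quartile scaling gave 2 of that dismutase and peroxidase list lower.

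Nqo1 was 0.0502 with total scaling, -0.07 without the mitochondrial chromosome, -0.26 with no filter, -0.22 with edgeR and -0.23 with voom, and -0.34 to -0.20 over the leave-one-out fits. Gclm was 0.232 with total scaling and 0.115 without the mitochondrial chromosome. Over the leave-one-out fits Gclm ran from -0.144 to 0.00238 and Txnrd1 from -0.0161 to 0.0966. The cause of these sign changes was not tested. Without 1 library the counts of loci lay between 3362 and 3991 higher and 3180 and 3880 lower.

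Same-numbered MI and Sham libraries deviated together with r of 0.146, 0.272, 0.16 and -0.0009, so the numbers were not taken to pair the samples. The replicate block gave 4 enzymes higher and 3 lower, adding Srxn1 (0.35, limma adjusted p 0.0488). Loci were then 4152 higher and 4056 lower, and 5 of 8 libraries correlated best with their own number, a hint only. Slc7a11 rests on 3 to 5 reads per Sham library, and no other depth was tried.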
